A study of Mus musculus with 16 samples.

Results

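The caveolin and cavin genes are 9 of the 20863 genes measured here, chosen by name: the caveolins Cav1, Cav2 and Cav3, the cavins Cavin1, Cavin2, Cavin3 and Cavin4, and the membrane-shaping proteins Ehd2 and Pacsin2. All 9 were found, 4 of them under an older symbol in the array's annotation (Ptrf for Cavin1, Sdpr for Cavin2, Prkcdbp for Cavin3 and Murc for Cavin4). Total RNA of whole lungs of C57BL/6 mice aged 9 to 12 weeks was hybridised to 16 Agilent arrays of 1 colour, to ask how silencing of the microRNA miR-199a-5p bears on lung fibrosis brought on by bleomycin. Mice of every group received 5 mg/kg of a locked nucleic acid (LNA) oligonucleotide into the trachea at 4 and at 2 days ahead of the injury and once more 4 days after it, so the reference groups too carried an LNA. Injury was bleomycin at 1 unit/kg, a DNA-damaging drug that scars the lung, and its vehicle was PBS, both into the trachea. The 4 groups were PBS + LNA-control (3 arrays), PBS + LNA-miR-199a-5p (3 arrays), Bleomycin + LNA-control (5 arrays) and Bleomycin + LNA-miR-199a-5p (5 arrays). When lungs were collected, and from which sex, is not given in the sources used here. The labels do not say that replicates are separate animals, so p-values measure the spread between these samples, which may be technical.

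Caveolae are small flask-shaped pits of the plasma membrane, abundant in lung endothelium, in type 1 alveolar epithelium, in fat and in muscle. Caveolin-1 and caveolin-2 form the coat in most cells and caveolin-3 in muscle, while cavins bind the coat from the cytoplasm and give it its shape. Caveolin-1 is known in the lung as a brake on TGF-beta signalling, and its loss is a feature of fibrotic lung tissue. miR-199a-5p is known as a repressor of Cav1 in lung fibroblasts.

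The sequence that the LNA was directed against is shown here because the groups turn on it, with its seed (bases 2 to 8) in capitals. It is encoded by Mir199a-2 at chr1:162217844-162217866 on the plus strand and by Mir199a-1 at chr9:21496537-21496559 on the minus strand (RefSeq, build GRCm38.p6). The seed pairs with the letters ACACUGG in a target RNA. A search of the Cav1 transcript for those letters was not made here.
mmu-miR-199a-5p: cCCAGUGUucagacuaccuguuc

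The array measured messenger RNA and not the mature microRNA, so the silencing itself has no direct check. Dnm3os, the transcript that hosts miR-199a-2, lay near the bottom of the scale, between 6.00 and 6.62 on the 16 arrays, and was called in none of the comparisons (lowest limma adjusted p = 0.131, for the inhibitor in bleomycin lungs). The deposited values are log2 intensities from 4.61 to 18.3, so a difference of 1 is a doubling, and the level of a gene cannot be set against the level of another. Arrays of a group correlated at 0.985 or more, and RNA integrity numbers ran from 7 to 10, with means of 8.33 in both PBS groups, 8.2 in Bleomycin + LNA-control and 9 in Bleomycin + LNA-miR-199a-5p. Markers of lung were measured in every group: their mean level on each array was at least 12.36 for endothelium, 12.66 for type 1 and 14.89 for type 2 epithelium. Markers of several other tissues stood apart on some arrays. Thymocyte markers averaged 8.99 and 9.64 on replicates 1 and 4 of Bleomycin + LNA-control and 7.02 to 7.38 on the other arrays. Skeletal muscle markers averaged 6.76 on replicate 3 of PBS + LNA-miR-199a-5p and 8.79 on replicate 3 of PBS + LNA-control, the lowest of the 16 arrays, against up to 11.58 in Bleomycin + LNA-miR-199a-5p. The same 2 arrays were the lowest in squamous epithelial markers (6.31 and 8.70, against 9.75 to 11.91 on the other arrays), in fat markers (9.82 and 9.91, against 10.91 to 12.24) and in the brown fat gene Ucp1 (5.56 and 5.57, against 7.65 to 13.86). In whole lung, fewer cells of a type and less RNA per cell cannot be told apart.

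In lungs given LNA-control, the transcripts of the main caveolar coat were lower after bleomycin. Cav1, Cav2, Cavin1 and Cavin2 fell by 0.39 to 0.58 on the log2 scale, the muscle caveolin Cav3 rose by 0.86, and Cavin3, Cavin4, Ehd2 and Pacsin2 did not pass the test. Called genes have a limma p under 0.05 after Benjamini-Hochberg adjustment over all genes. By that rule 5 of the 9 genes were called, against 17.5 percent of all genes, with 4 lower (7.90 percent of all genes) and 1 higher (9.60 percent). In bleomycin lungs, Cav1, Cav2, Cavin1, Cavin2 and Cavin4 were higher with the inhibitor than with LNA-control and Ehd2 was lower. These are 6 of 9 genes against 24.9 percent of all genes, with 13.4 percent of all genes higher and 11.4 percent lower. The median difference of the 9 genes in that comparison was 0.25, against 0.01 over all genes. After bleomycin with LNA-control their median was 0.0007, against 0.0035 over all genes. Both comparisons use the Bleomycin + LNA-control arrays, so a low or high value there enters both with opposite sign.

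**Figure D1:**
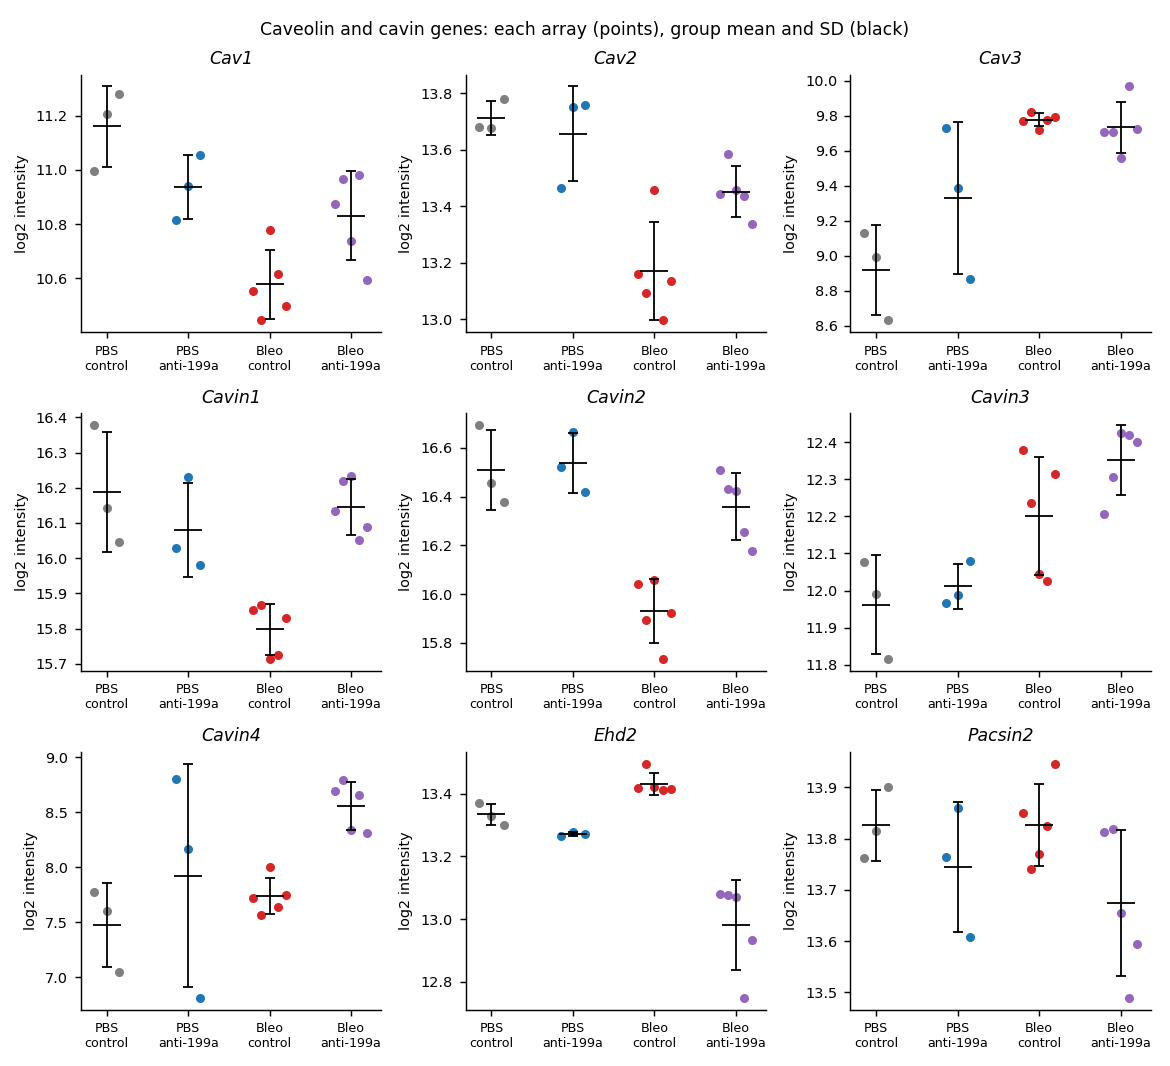
Log2 intensity of each of the 9 genes (vertical axes, not starting at 0) on every array, by group, with the group mean and SD in black (n = 3, 3, 5 and 5); "anti-199a" stands for LNA-miR-199a-5p. Cav1, Cav2, Cavin1 and Cavin2 were lowest in Bleomycin + LNA-control, whereas Ehd2 was lowest in Bleomycin + LNA-miR-199a-5p.

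Cav1 encodes caveolin-1, the protein without which most cells form no caveolae. Its single probe read 10.99, 11.21 and 11.28 in PBS + LNA-control and 10.82, 10.94 and 11.05 in PBS + LNA-miR-199a-5p. With bleomycin it read 10.56, 10.45, 10.78, 10.61 and 10.50 after LNA-control and 10.88, 10.97, 10.74, 10.98 and 10.59 after LNA-miR-199a-5p. Every LNA-control array lay lower with bleomycin than with PBS, while the bleomycin groups of the 2 LNAs overlapped. Cav1 was 1.5-fold lower after bleomycin with LNA-control (log2 difference -0.58 ± 0.10 SE, limma adjusted p = 0.000923). The call held under all 27 alternative settings, where the difference ran from -0.66 to -0.46. With the inhibitor, bleomycin lungs differed from PBS lungs by -0.11 in Cav1, with a 95 percent interval of -0.33 to 0.11 (limma adjusted p = 0.53).

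Within bleomycin lungs the inhibitor left Cav1 higher by 0.25 ± 0.09, a limma adjusted p of 0.04996 that is barely under the threshold. The call was lost in 18 of 27 alternatives, among them the fit of the groups compared alone (limma adjusted p = 0.0736) and the fit with RNA integrity as a covariate (0.106). It was also lost for Cav1 without any of 12 of the 16 arrays: replicates 1, 2, 4 or 5 of Bleomycin + LNA-control, 1 to 4 of Bleomycin + LNA-miR-199a-5p, 2 or 3 of PBS + LNA-control, and 1 or 2 of PBS + LNA-miR-199a-5p, with differences between 0.22 and 0.28 and limma adjusted p between 0.0504 and 0.118. In PBS lungs the inhibitor's difference for Cav1 was -0.22, with an interval of -0.47 to 0.02. The difference between the inhibitor's effects in bleomycin and PBS lungs was 0.48 (limma adjusted p = 0.0623), which did not pass.

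Cav2 encodes caveolin-2, which joins caveolin-1 in the same oligomers, and its gene lies next to Cav1 on chromosome 6. On the kept spot it read 13.68, 13.68 and 13.78 in PBS + LNA-control and 13.46, 13.75 and 13.76 in PBS + LNA-miR-199a-5p. Bleomycin lungs read 13.16, 13.09, 13.46, 13.00 and 13.13 after LNA-control and 13.45, 13.59, 13.46, 13.44 and 13.34 after LNA-miR-199a-5p. Of the bleomycin arrays with LNA-control, replicate 3 alone reached the range of the inhibitor group. Cav2 was 1.46-fold lower after bleomycin with LNA-control (-0.54 ± 0.10, limma adjusted p = 0.00107), a call that held under all 27 alternatives. The inhibitor left it higher by 0.28 ± 0.09 in bleomycin lungs (limma adjusted p = 0.0247). That call for Cav2 was lost in 7 of 27 alternatives, including the fits without replicate 4 (0.24, limma adjusted p = 0.0709) or 5 (0.27, 0.0543) of Bleomycin + LNA-control and without replicate 2 of Bleomycin + LNA-miR-199a-5p (0.25, 0.0594).

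The array carried Cav2 on 12 spots, which gives repeated measurements of the same RNA rather than more animals. On the 11 spots of its RefSeq transcript the bleomycin difference with LNA-control ran from -0.61 to -0.46, with 10 called lower. The inhibitor's difference in bleomycin lungs ran from 0.03 to 0.34 on those spots, with 8 called higher. The weakest of them, spot 14715, was more uneven between arrays (10.27 to 11.66) and was called in neither comparison. A further Cav2 spot, annotated to another accession, was called lower with bleomycin (-0.51) and differed in the opposite direction with the inhibitor (-0.21), without passing there.

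**Figure D2:**
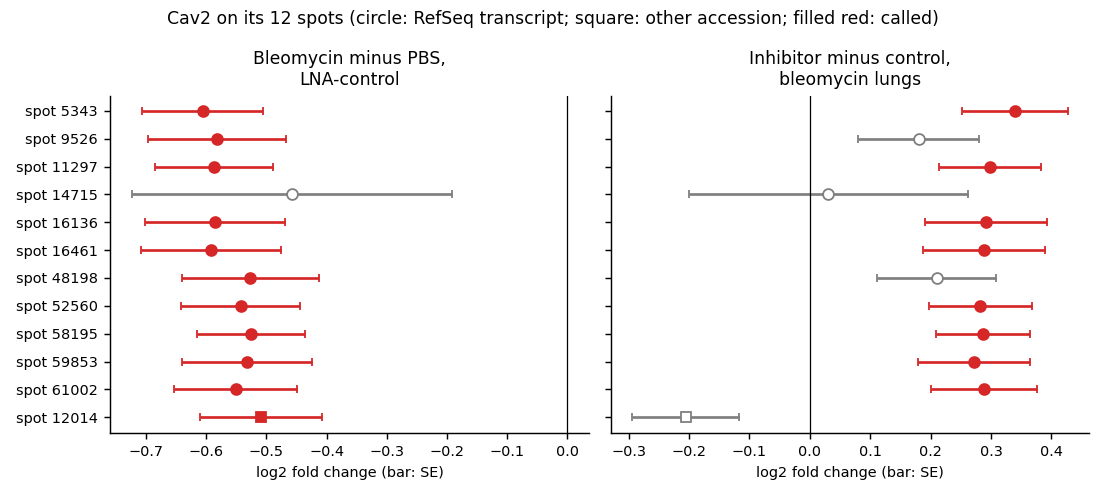
Log2 fold change of Cav2 (horizontal axes, bars SE) on its 12 spots, for bleomycin minus PBS with LNA-control (left) and inhibitor minus control in bleomycin lungs (right). The 11 RefSeq spots lie between -0.61 and -0.46 on the left and between 0.03 and 0.34 on the right, and the spot of the other accession lies below 0 in both.

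Cavin1, also called Ptrf, encodes the cavin that is needed for caveolae in all tissues. It read 16.38, 16.14 and 16.05 in PBS + LNA-control and 16.03, 16.23 and 15.98 in PBS + LNA-miR-199a-5p. In bleomycin lungs it read 15.85, 15.87, 15.71, 15.73 and 15.83 with LNA-control and 16.13, 16.22, 16.23, 16.05 and 16.09 with LNA-miR-199a-5p. The Bleomycin + LNA-control arrays overlapped with no other group. Cavin1 fell by 0.39 ± 0.09 (1.31-fold) after bleomycin with LNA-control (limma adjusted p = 0.00402) and was 0.35 ± 0.07 higher with the inhibitor in bleomycin lungs (0.00308). After bleomycin with the inhibitor the difference from PBS was 0.07, with an interval of -0.12 to 0.25. The inhibitor's effects on Cavin1 in bleomycin and PBS lungs differed by 0.46 ± 0.12 (limma adjusted p = 0.0328). That call was lost in 13 of 26 alternatives, with adjusted p up to 0.0974, among them the fit blocked on replicate number (0.46, limma adjusted p = 0.0551). Single arrays whose removal lost it for Cavin1 were replicates 4 (0.44) and 5 (0.46) of Bleomycin + LNA-control, 3 of Bleomycin + LNA-miR-199a-5p (0.43), 1 (0.36) and 2 (0.48) of PBS + LNA-control and 1 (0.43) and 3 (0.41) of PBS + LNA-miR-199a-5p. A second Cavin1 probe stayed between 6.21 and 6.93, near the bottom of the scale, where the median of all spots was 6.15. It pointed the same way in both comparisons (-0.29 and 0.20) and passed in neither, and a probe this low says little about direction.

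Cavin2, also called Sdpr, encodes a cavin that is prominent in lung endothelium. It read 16.69, 16.46 and 16.38 in PBS + LNA-control and 16.52, 16.67 and 16.42 in PBS + LNA-miR-199a-5p. Bleomycin arrays read 16.04, 15.89, 16.06, 15.73 and 15.92 with LNA-control and 16.51, 16.43, 16.42, 16.25 and 16.18 with LNA-miR-199a-5p. As with Cavin1, the Bleomycin + LNA-control arrays lay below the arrays of the other groups. Cavin2 was 1.49-fold lower after bleomycin with LNA-control (-0.58 ± 0.10, limma adjusted p = 0.000786) and 1.35-fold higher with the inhibitor in bleomycin lungs (0.43 ± 0.09, 0.00236). The bleomycin calls of Cavin1 and Cavin2 held under all 27 alternatives. Their inhibitor calls were lost in 1 of 27, the fit with the mean levels of fat and heart muscle markers as covariates, where the differences were 0.47 for Cavin1 (limma adjusted p = 0.156) and 0.45 for Cavin2 (0.309).

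Cavin3, also called Prkcdbp, encodes a cavin that binds caveolin-1 and is linked to vesicle movement. It read 12.08, 11.99 and 11.82 in PBS + LNA-control, 11.97, 11.99 and 12.08 in PBS + LNA-miR-199a-5p, and 12.38, 12.23, 12.04, 12.03 and 12.32 in Bleomycin + LNA-control. In Bleomycin + LNA-miR-199a-5p it read 12.21, 12.31, 12.43, 12.42 and 12.40. These last arrays lay above both PBS groups, while the bleomycin groups overlapped. Cavin3 differed by 0.24 ± 0.09 after bleomycin with LNA-control (limma adjusted p = 0.0919) and by 0.34 ± 0.09 with the inhibitor (0.0261). The latter call for Cavin3 was lost in 11 of 27 alternatives, among them the fit blocked on replicate number (0.33, limma adjusted p = 0.0962) and the fits without replicate 4 (0.32) or 5 (0.33) of Bleomycin + LNA-miR-199a-5p and without replicate 1 (0.32), 2 (0.33) or 3 (0.37) of PBS + LNA-miR-199a-5p. The inhibitor's difference in bleomycin lungs was 0.15, with an interval of -0.02 to 0.32.

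The start regions of the 4 coat genes that fell together are shown here, as the 150 bases that precede each RefSeq start site (build GRCm38.p6). Capitals mark matches on either strand to the GC box GGGCGG, the CCAAT box CCAAT and the TATA box TATAAA, none of which overlap. The windows are chr6:17306185-17306334 for Cav1, chr6:17281035-17281184 for Cav2 and chr1:51288976-51289125 for Cavin2 on the plus strand, and chr11:100970618-100970767 for Cavin1 on the minus strand.
Cav1: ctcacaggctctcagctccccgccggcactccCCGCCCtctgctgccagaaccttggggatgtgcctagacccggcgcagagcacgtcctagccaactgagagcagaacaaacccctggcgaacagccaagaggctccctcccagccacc
Cav2: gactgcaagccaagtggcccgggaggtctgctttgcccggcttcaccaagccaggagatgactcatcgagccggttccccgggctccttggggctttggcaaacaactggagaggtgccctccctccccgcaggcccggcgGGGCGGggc
Cavin1: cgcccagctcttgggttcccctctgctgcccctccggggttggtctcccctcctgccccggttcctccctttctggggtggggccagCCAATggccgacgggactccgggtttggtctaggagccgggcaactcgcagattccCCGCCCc
Cavin2: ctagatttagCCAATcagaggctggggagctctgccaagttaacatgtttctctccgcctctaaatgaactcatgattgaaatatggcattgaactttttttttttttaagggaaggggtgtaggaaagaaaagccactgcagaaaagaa

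A GC box began at position -118 in Cav1, -9 in Cav2 and -7 in Cavin1, counting the base before the start site as -1. A CCAAT box began at -63 in Cavin1 and -140 in Cavin2. These matches are descriptions of the letters: of 32851 windows of the same length before RefSeq starts, 28.6 percent held a GC box and 24.5 percent a CCAAT box. No motif was shared by all 4 windows among the 3 marked, and none of the 4 held a TATA box.

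Cav3 and Cavin4 are the muscle members, caveolin-3 forming the caveolae of striated muscle and cavin-4 (Murc) joining them there. Cav3 read 9.13, 8.99 and 8.63 in PBS + LNA-control and 9.73, 9.39 and 8.87 in PBS + LNA-miR-199a-5p. With bleomycin it read 9.77, 9.82, 9.72, 9.78 and 9.80 after LNA-control and 9.71, 9.71, 9.56, 9.97 and 9.72 after LNA-miR-199a-5p. The bleomycin groups overlapped, and the PBS groups were more uneven and reached lower. Cav3 was 1.81-fold higher after bleomycin with LNA-control (0.86 ± 0.15, limma adjusted p = 0.000794), a call that held under all 27 alternatives. With the inhibitor its bleomycin difference was 0.41 (limma adjusted p = 0.0825), and in bleomycin lungs the inhibitor's difference was -0.04, with an interval of -0.32 to 0.23.

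Cavin4 was uneven between arrays in the PBS groups, with 7.78, 7.61 and 7.05 in PBS + LNA-control and 8.80, 8.16 and 6.81 in PBS + LNA-miR-199a-5p. In bleomycin lungs it read 7.72, 7.57, 8.00, 7.64 and 7.75 with LNA-control and 8.69, 8.79, 8.34, 8.66 and 8.31 with LNA-miR-199a-5p. The bleomycin groups of the 2 LNAs did not overlap. The inhibitor left Cavin4 1.77-fold higher in bleomycin lungs (0.82 ± 0.26, limma adjusted p = 0.03), and its other comparisons did not pass. The call for Cavin4 was lost in 9 of 26 alternatives, 7 of them fits without a single array: replicates 1 (0.82), 2 (0.78), 4 (0.80) or 5 (0.82) of Bleomycin + LNA-control and 1 (0.79), 2 (0.76) or 4 (0.80) of Bleomycin + LNA-miR-199a-5p.

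Within groups both genes varied with the skeletal muscle markers. Of 14 skeletal muscle markers, 0 were called by limma after bleomycin with LNA-control, against 17.5 percent of all genes. Their median in this comparison, in which Cav3 rose, was 0.75, with 2 of 14 under an unadjusted p of 0.05. With the inhibitor in bleomycin lungs 4 of 14 were higher and 0 lower (median 1.09), against 13.4 and 11.4 percent of all genes. Cavin4 rose there and Cav3 differed by -0.04. After bleomycin with the inhibitor 3 of 14 were higher and 0 lower, against 7.31 and 6.04 percent of all genes. Their median was 1.89, with 12 of 14 under an unadjusted limma p of 0.05, while Cav3 differed by 0.41 there and was not called. The mean of the 14 skeletal muscle markers was 8.79 to 9.86 in PBS + LNA-control, 6.76 to 11.00 in PBS + LNA-miR-199a-5p, 9.87 to 10.28 in Bleomycin + LNA-control and 10.70 to 11.58 in Bleomycin + LNA-miR-199a-5p. As deviations from the group means over 16 arrays, Cav3 correlated with that mean at r = 0.90 (rho 0.79) and Cavin4 at r = 0.94 (rho 0.81). Without the arrays farthest out, replicates 1 and 3 of PBS + LNA-miR-199a-5p, r was 0.76 for Cav3 and 0.72 for Cavin4. The mean of 12 fat markers gave like values, r = 0.89 for Cav3 (rho 0.69) and 0.89 for Cavin4 (rho 0.61), or 0.71 and 0.61 without the same arrays. With the skeletal muscle mean as a covariate, the bleomycin difference of Cav3 with LNA-control was 0.71 (limma adjusted p = 4.59e-05) and the inhibitor's difference of Cavin4 in bleomycin lungs was 0.35 (0.0415), against 0.82 without the covariate. In the same fit the inhibitor's difference of Cav3 in bleomycin lungs was -0.26 (0.0347), and the difference between its effects on Cav3 in bleomycin and PBS lungs was -0.67 (0.00587), both past the threshold. This covariate was added after the data were seen. The bleomycin groups did not overlap in it, so covariate and inhibitor cannot be told apart in the adjusted differences in bleomycin lungs. With fat and heart muscle markers as covariates, the values were 0.66 for Cav3 with bleomycin (limma adjusted p = 0.00142) and 0.19 for Cavin4 with the inhibitor (0.846). Without replicate 3 of both PBS groups, Cav3 was 0.72 higher with bleomycin and LNA-control (limma adjusted p = 0.000842).

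The windows of 150 bases before the starts of Cav3 (chr6:112459355-112459504) and Cavin4 (chr4:48663364-48663513), both on the plus strand of GRCm38.p6 and marked as above, differ from those of the coat genes in the boxes they hold.
Cav3: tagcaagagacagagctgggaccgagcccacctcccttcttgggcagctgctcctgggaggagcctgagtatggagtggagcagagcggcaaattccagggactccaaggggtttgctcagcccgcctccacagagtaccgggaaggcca
Cavin4: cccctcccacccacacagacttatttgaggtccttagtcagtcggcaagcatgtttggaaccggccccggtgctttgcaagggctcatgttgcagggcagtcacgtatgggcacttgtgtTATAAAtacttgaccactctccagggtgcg

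Cavin4 held a TATA box at position -30, which 7.57 percent of all windows hold, and Cav3 held none of the marked boxes. An E box, CANNTG, the letters bound by muscle regulators of the MyoD family among others, began at -106 in Cav3 and at -39 in Cavin4. It also began at -57 in Cav1 and at -140 and -47 in Cav2, and 47.7 percent of all windows hold it.

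Ehd2 encodes an ATPase that holds caveolae at the membrane through rings around their necks. On the kept probe it read 13.37, 13.33 and 13.30 in PBS + LNA-control and 13.27, 13.28 and 13.27 in PBS + LNA-miR-199a-5p. Bleomycin lungs read 13.42, 13.49, 13.42, 13.41 and 13.41 with LNA-control and 13.08, 13.08, 13.07, 12.75 and 12.93 with LNA-miR-199a-5p. None of the groups overlapped, and the Bleomycin + LNA-miR-199a-5p arrays were the lowest. Ehd2 was 1.37-fold lower with the inhibitor in bleomycin lungs (-0.45 ± 0.07, limma adjusted p = 0.000182), opposite in direction to the coat genes. It was 0.29 lower after bleomycin in lungs given the inhibitor (limma adjusted p = 0.0221), where 2 of 9 genes were called (Cavin3 higher and Ehd2 lower) against 13.4 percent of all genes (7.31 percent higher and 6.04 percent lower). That call for Ehd2 was lost in 10 of 27 alternatives, 1 of them the fit blocked on replicate number (-0.24, limma adjusted p = 0.0962) and 3 of them the fits without replicate 1, 2 or 3 of PBS + LNA-miR-199a-5p (each -0.29). With LNA-control the difference after bleomycin was 0.10, with an interval of -0.06 to 0.26.

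The probes for Ehd2 disagree. The kept probe is annotated to a cDNA accession outside the RefSeq set and the other to the RefSeq transcript of Ehd2. That second probe read 11.08, 11.40 and 10.61 in PBS + LNA-control and 11.10, 11.13 and 10.99 in PBS + LNA-miR-199a-5p. With bleomycin it read 10.90, 11.26, 11.29, 11.07 and 11.40 after LNA-control and 10.40, 11.12, 10.73, 11.58 and 11.38 after LNA-miR-199a-5p. Its groups overlapped, and its inhibitor difference in bleomycin lungs was -0.14 ± 0.19 (limma adjusted p = 0.632). With the mean of both Ehd2 probes that difference was -0.29 and passed (0.0283), while the bleomycin difference with the inhibitor was -0.16 and did not (0.33). The kept probe enters this mean, so the mean is no separate support for it.

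Pacsin2, whose product bends membrane at caveolar necks, read 13.49 to 13.95 on the 16 arrays and was called in no comparison. Its difference after bleomycin with LNA-control was 0.00, with an interval of -0.18 to 0.19, and with the inhibitor in bleomycin lungs -0.15, with an interval of -0.31 to 0.01.

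**Figure D3:**
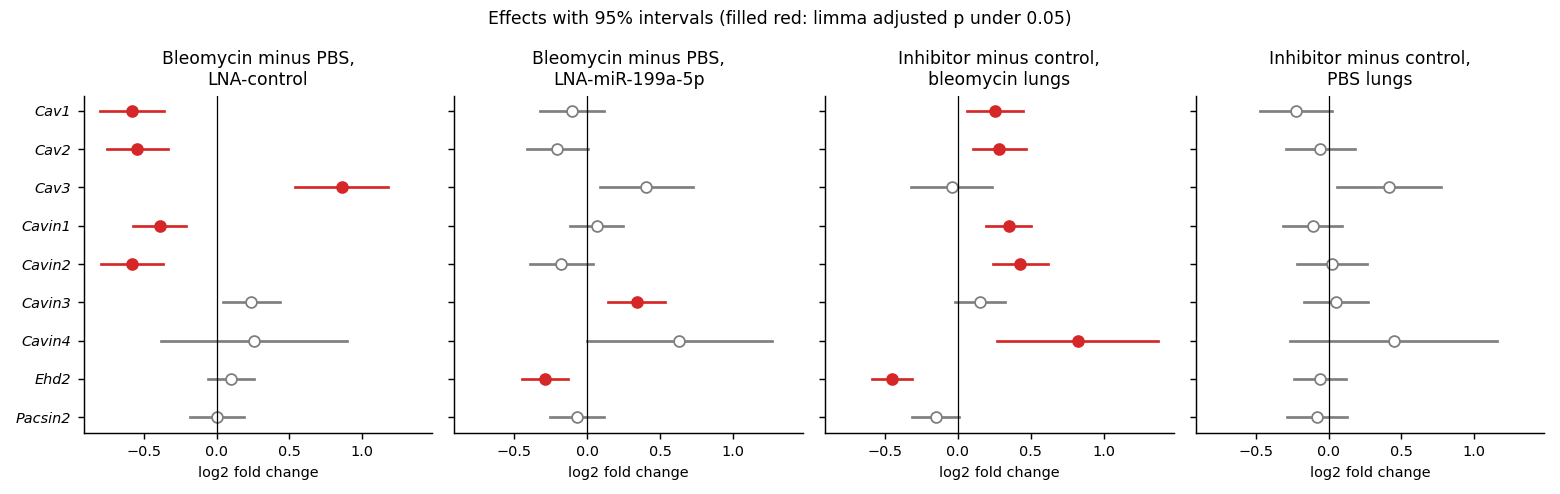
Log2 fold change of the 9 genes (points) with 95 percent intervals in 4 comparisons, filled red where the limma adjusted p is under 0.05. Cav1, Cav2, Cavin1 and Cavin2 lie at -0.58 to -0.39 in the first panel, and in the third panel Cavin4 lies at 0.82 and Ehd2 at -0.45.

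In PBS lungs the inhibitor changed none of the 9 genes past the limma threshold, where 0.0479 percent of all genes were called (0.0336 percent higher and 0.0144 percent lower). Before adjustment the limma p was under the threshold for 1 of the 9, Cav3 (difference 0.41, limma adjusted p = 0.601), and for 7.31 percent of all genes. The intervals in PBS lungs still admit differences as large as those seen in bleomycin lungs for some genes, for example -0.26 to 1.16 for Cavin4. None of the 9 genes was called in these lungs either when the replicate number, which the PBS groups share, was a block; that block took the count over all genes from 10 to 3, or to 2 with the PBS arrays alone. The difference between the inhibitor's effects in bleomycin and PBS lungs passed for 2 of the 9 genes, against 7.01 percent of all genes (3.07 percent higher and 3.94 percent lower): Cavin1, above, and Ehd2 at -0.39 ± 0.11 (limma adjusted p = 0.0387). Blocked on replicate number, 0 of the 9 passed this test (Cavin1 0.46, limma adjusted p = 0.0551, and Ehd2 -0.39, 0.0541). The Ehd2 call was lost in 17 of 26 alternatives, 10 of them fits without a single array, with differences between -0.41 and -0.37. Those arrays were replicates 1, 4 and 5 of Bleomycin + LNA-control, replicate 5 of Bleomycin + LNA-miR-199a-5p and each of the 6 PBS arrays. For Cav2 that difference was 0.34 (limma adjusted p = 0.16), for Cavin2 0.40 (0.102) and for Cav3 -0.45 (0.218).

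Leaving out the thymus-rich replicates 1 and 4 of Bleomycin + LNA-control kept all 5 bleomycin calls and took the inhibitor's calls in bleomycin lungs from 6 to 3. Cavin1 (0.34, limma adjusted p = 0.0254), Cavin2 (0.40, 0.0192) and Ehd2 (-0.46, 0.00274) still passed. Cav1 (0.26, 0.152), Cav2 (0.22, 0.162) and Cavin4 (0.79, 0.131) did not.

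Other genes of the caveolar pathway were read from a list of 20 partners. After bleomycin with LNA-control 1 was higher and 4 were lower (all genes: 9.60 and 7.90 percent), with a median of -0.05. So 5 of 20 were called against 17.5 percent of all genes, which is not read as a result about the list. The receptor Tgfbr1, whose traffic and signalling caveolin-1 curbs, rose by 0.51 ± 0.08 (limma adjusted p = 0.000211). Ehd4, a relative of Ehd2, differed by -0.55, the fatty acid carrier Cd36 by -0.63, and Plvap, which builds the diaphragms of endothelial caveolae, by -0.65 (limma adjusted p = 0.000715, 0.000807 and 0.0105). With the inhibitor in bleomycin lungs 4 partners were higher and 1 lower, with a median of 0.14. These 5 of 20 are close to the 24.9 percent of all genes called in that comparison, so the count says nothing about the partners as a list. Of these genes, Plvap differed by 0.98 ± 0.14 (limma adjusted p = 0.000172), the endothelial lipase anchor Gpihbp1 by 0.45, the nitric oxide synthase adaptor Nostrin by 0.34, and Tgfbr1 by -0.48. After bleomycin with the inhibitor 1 of 20 was called, the actin cross-linker Flna (0.38), against 13.4 percent of all genes. The inhibitor's effects in bleomycin and PBS lungs differed for Plvap (1.09), Gpihbp1 (0.49) and Tgfbr1 (-0.60), with limma adjusted p of 0.011, 0.0447 and 0.00421. These were 2 higher and 1 lower of 20, against 3.07 and 3.94 percent of all genes. In PBS lungs 0 of 20 were called by limma (all genes: 0.0479 percent), and 0 had an unadjusted p under 0.05 (all genes: 7.31 percent).

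Clathrin-coated pits are the other main route of uptake from the membrane, and 26 of their genes were read as well. After bleomycin with LNA-control 2 were higher and 4 lower (all genes: 9.60 and 7.90 percent), with a median of -0.03. Amph (-0.63), Epn2 (-0.44) and Fcho2 (-0.33), which help bend or start the pit, were lower. The adaptor subunit Ap2s1 (0.37) was higher. With the inhibitor in bleomycin lungs 4 were higher and 4 lower (all genes: 13.4 and 11.4 percent), with a median of 0.11. The adaptor subunit Ap2a2 differed by 0.47, Amph by 0.45, its partner Bin1 by 0.42, and the clathrin heavy chain Cltc by -0.30. After bleomycin with the inhibitor 4 were higher and none lower (all genes: 7.31 and 6.04 percent). The higher ones were Ap2a2 (0.34), Fcho1 (0.65), Ap2a1 (0.62) and Ap2m1 (0.31). In PBS lungs 0 of 26 were called by limma (all genes: 0.0479 percent), and 1 had an unadjusted p under 0.05 (all genes: 7.31 percent). Beside these shares the counts are not read as a result about the clathrin genes as a list.

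**Figure D4:**
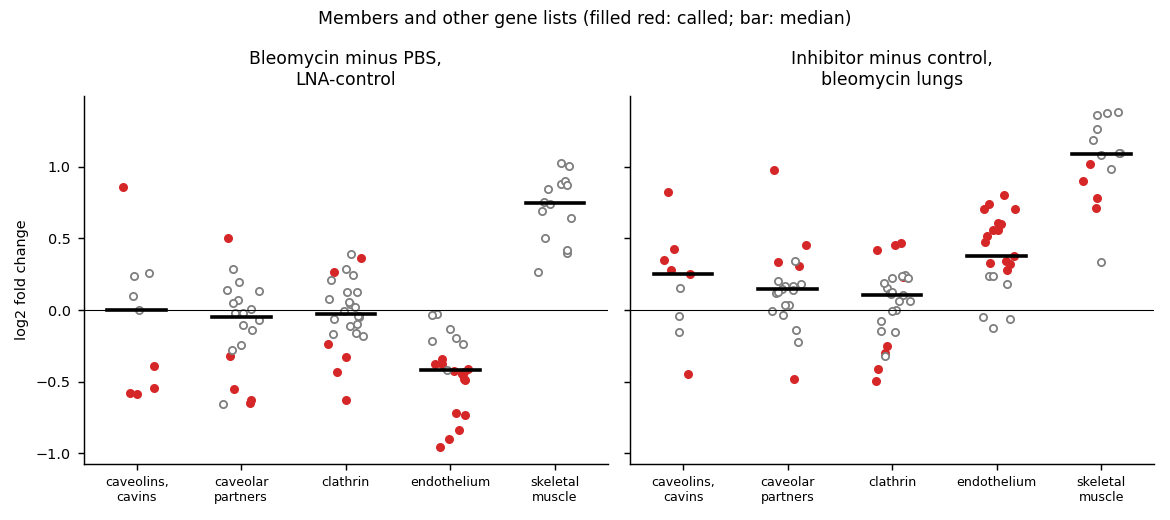
Log2 fold change of each gene (points) of the 9 caveolin and cavin genes, 20 caveolar partners, 26 clathrin genes, 21 endothelial and 14 skeletal muscle markers, for bleomycin minus PBS with LNA-control (left) and inhibitor minus control in bleomycin lungs (right); bars are medians and filled red points were called. The endothelial median is -0.42 on the left and 0.38 on the right, and the skeletal muscle median is above 0 in both.

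Endothelial markers differed in the same direction as Cav1, Cav2, Cavin1 and Cavin2 in both comparisons, while those of type 1 epithelium, also rich in caveolae, were mixed. Of 21 endothelial markers, 14 were lower and 0 higher after bleomycin with LNA-control, against 7.90 and 9.60 percent of all genes. Their median was -0.42, led by Kdr (-0.95), Erg (-0.84) and Tek (-0.73). With the inhibitor in bleomycin lungs 15 were higher and 0 lower, with a median of 0.38, against 13.4 and 11.4 percent of all genes called. Their mean level was 12.86 to 12.91 in PBS + LNA-control, 12.65 to 12.92 in PBS + LNA-miR-199a-5p, 12.36 to 12.59 in Bleomycin + LNA-control and 12.80 to 12.89 in Bleomycin + LNA-miR-199a-5p. Bleomycin + LNA-control was the lowest group here, as for Cav1, Cav2, Cavin1 and Cavin2, and the part of endothelial content in the differences of Cav1, Cav2, Cavin1 and Cavin2 was not tested. Within groups, as deviations from the group means over 16 arrays, Cav2 correlated with the endothelial mean at r = 0.68 (0.36 without the 2 arrays farthest out) and Cav1 at r = 0.43 (0.18 without them). For Cavin1 r was -0.24 and for Cavin2 -0.07. The type 1 epithelial mean gave r = 0.78 for Cav2 and 0.51 for Cav1 (0.47 and 0.24 without the 2 arrays farthest out), -0.17 for Cavin1 and 0.12 for Cavin2. The macrophage mean gave -0.60 for Cav2 and -0.64 for Cav1 (-0.38 and -0.57 without the 2 farthest), 0.36 for Cavin1 and -0.11 for Cavin2. Between groups the 12 type 1 epithelial markers were mixed. After bleomycin with LNA-control 2 were higher (Igfbp2 led with 1.18) and 3 lower (Hopx by -0.51), with a median of 0.01 (all genes: 9.60 and 7.90 percent called). With the inhibitor in bleomycin lungs 5 were higher and 3 lower (all genes: 13.4 and 11.4 percent). Mesothelial and lung fibroblast medians went the same way as the endothelial one. After bleomycin with LNA-control 4 of 8 mesothelial markers were lower and 0 higher (median -0.19). Of 17 lung fibroblast markers 6 were lower and 4 higher (median -0.27). With the inhibitor in bleomycin lungs 4 mesothelial markers were higher and 0 lower (median 0.26), and 8 fibroblast markers were higher and 4 lower (0.36). Their part in the results above was not tested.

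**Figure D5:**
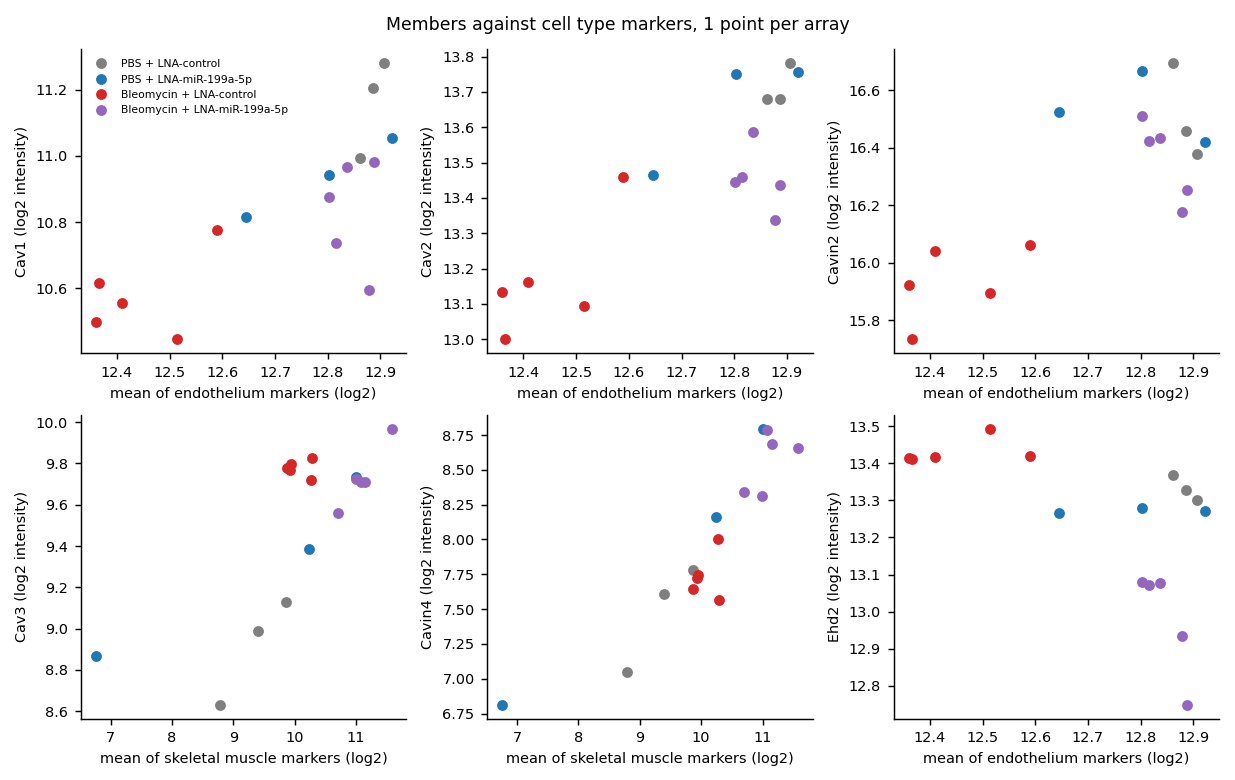
Log2 intensity of 6 genes (vertical axes) against the mean log2 level of endothelial or skeletal muscle markers (horizontal axes), with 1 point per array, coloured by group. Cavin4 is lowest on the array with the lowest skeletal muscle mean (6.76), while Cav3 is lowest (8.63) on replicate 3 of PBS + LNA-control. The bleomycin groups overlap in Cav3 but not in the skeletal muscle mean. The Bleomycin + LNA-control arrays are lowest both in endothelial markers and in Cavin2.

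Markers of fat and heart muscle, tissues that are also rich in caveolae, differed between groups. Of 12 heart muscle markers 11 were higher with the inhibitor in bleomycin lungs (median 0.71), against 13.4 percent of all genes. After bleomycin with LNA-control 5 of them were lower, against 7.90 percent of all genes. Of 12 fat markers, 6 were higher and 1 lower with the inhibitor in bleomycin lungs (all genes: 13.4 and 11.4 percent). Lpl led after bleomycin with LNA-control (0.91), with 1 of 12 called, against 17.5 percent of all genes. The bleomycin groups of the 2 LNAs did not overlap in the mean of either list (fat 11.17 to 11.57 and 11.94 to 12.23, heart muscle 11.04 to 11.55 and 11.63 to 12.28). With both means as covariates 0 of the 6 inhibitor calls in bleomycin lungs passed, and 147 genes in all did. The differences then were 0.23 for Cav1, 0.23 for Cav2, 0.47 for Cavin1, 0.45 for Cavin2, 0.19 for Cavin4 and -0.38 for Ehd2. Without the covariates they were 0.25, 0.28, 0.35, 0.43, 0.82 and -0.45 in that order, so a lost call need not be a smaller difference. Because the bleomycin groups do not overlap in these means, this fit cannot tell the inhibitor from the markers. Macrophage markers went the other way from the coat genes. After bleomycin with LNA-control 15 of 16 were higher (median 1.19, Trem2 by 3.47), against 9.60 percent of all genes. With the inhibitor in bleomycin lungs 15 of 16 were lower (median -1.03), against 11.4 percent of all genes. The part of macrophage content in the results above was not tested.

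Within groups the members followed each other only in part. Over their 36 pairs, as deviations from the group means over 16 arrays, the median r was 0.10, from -0.49 (Cav2 with Cav3) to 0.88, with 5 pairs above 0.5 and 3 under -0.4. Among the pairs above 0.5, Cav1 correlated with Cav2 at r = 0.67 (rho 0.66), Cavin1 with Cavin2 at 0.69 (0.65) and Cav3 with Cavin4 at 0.88 (0.58). Without the 2 arrays farthest out these were 0.54, 0.60 and 0.63. The other pairs above 0.5 cut across these: Cavin1 with Ehd2 at 0.51 (rho 0.65, and 0.61 without the 2 farthest) and Ehd2 with Pacsin2 at 0.53 (rho 0.28, and 0.09 without them). Cav1 went against Cavin1 at -0.47 (rho -0.52, and -0.42 without the 2 farthest) and against Cavin3 at -0.47. These values are descriptions of 16 arrays that share their preparation and normalization.

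Over all 16 arrays, group differences included, the genes most like Cav1 were Pnisr (r = 0.952), Hs3st1 (0.932), St3gal6 (0.923), Fancb (0.920) and Ttc28 (0.918). Those most like Cav2 were Hilpda (0.965), Reck (0.964) and Arhgef12 (0.960). For Cavin1 they were Akirin2 (0.928), Dact1 and Smpd4, and for Cavin2 Etl4 (0.950), Sptbn1 and Pir. Cavin3 was most like Pdlim1 (0.921), Gucd1 and Jagn1. Cav3 was closest to Tgm1 (0.962), Csl and Ak1, and Cavin4 to Hoxc4 (0.984), Serpinb2 and Dapl1. Ehd2 was closest to Nt5e (0.958), Hhip and Arfgef3, and Pacsin2 to Zfp386 (0.942), Ccz1 and Ube2e2. The 4 coat genes that fell together shared none of these nearest genes, but lists this short cannot tell alike profiles from unlike ones. Over the same 16 arrays Cav1 correlated with Cav2 at r = 0.89, with Cavin1 at 0.53 and with Cavin2 at 0.70. Cav2 correlated with Cavin1 at 0.66 and with Cavin2 at 0.86, and Cavin1 with Cavin2 at 0.87.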

How the data were processed

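Whole-lung RNA (0.2 ug a sample) was labelled with Cy3 and hybridised, per the labels. The deposited values are log2 intensities, for which the submitters' processing notes name limma with no version; sorted values of the arrays lay within 0.0974 of each other, as quantile normalization leaves them, and background correction and slides are not given in the sources used here. Of 62976 spots, 31465 had a gene symbol and 29036 matched RefSeq accessions. Per gene the probe with the highest mean was kept, giving 20863 genes (median level 8.47). A limma model (3.58.1, R 4.3.3) with a mean for each of the 4 groups was fitted on the 16 arrays together (lmFit, eBayes), unfiltered. Tests are two-sided with Benjamini-Hochberg adjustment over the genes of a contrast, a gene is called under 0.05, and the code was tested on simulated data. Arrays have no count depth, so their number limits the precision.

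The members and lists were chosen with earlier results of these data known. Named are all 9 members, up to 4 called partner and clathrin genes with the smallest p per contrast, up to 3 called markers per cell type, the 5 genes most like Cav1 and 3 most like each other member, and Dnm3os; not all of these are described. Same-numbered PBS arrays deviated together (r of 0.411, 0.108 and 0.497 over genes), and same-numbered bleomycin arrays did not (-0.373 to 0.027). The labels state no pairing, and the replicate number entered only the alternatives, as a block, and not the main fit. Replicate 3 of both PBS groups was low in muscle, fat and squamous markers, and the part of that in these r was not tested. Alternatives were array weights, a replicate block, RNA integrity, the compared groups alone, probe means, a level filter, cyclic loess, marker covariates and leaving out arrays. RefSeq GRCm38.p6 supplied promoters and miRNA sequences.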

Additional observations from a re-analysis of the deposited data

Results flagged for a closer look

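On the kept Ehd2 probe the highest array of Bleomycin + LNA-control, replicate 2 at 13.49, stood apart from the other 4 of its group, which read 13.41 to 13.42. The gap is small beside the range of Bleomycin + LNA-miR-199a-5p, 12.75 to 13.08. Replicate 2 was the 1 array that stood apart in this way in 18 groups of arrays examined, 9 genes in each bleomycin group, and chance alone marks about 1 in 20 groups. The inhibitor's effect differed between bleomycin and PBS lungs for Cavin1 by 0.46 and for Ehd2 by -0.39, by the interaction term of the limma fit. These calls were lost in 13 (Cavin1) and 17 (Ehd2) of 26 alternatives, and neither passed with the replicate block. On the other probe of each gene the term did not pass: 0.32 for Cavin1 (limma adjusted p = 0.22) and -0.18 for Ehd2 (0.778).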

How the results depend on the processing

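Over 1210 member values under alternatives, 1087 kept direction and side of the threshold, 88 lost a call, 14 gained one and 21 reversed; the cause was not tested where a setting changed a value. Members called with bleomycin and LNA-control were 6 with array weights, where Cavin3 gained a call (0.27), and 5 in the other settings. Genes called in that comparison (3651) were 6713 with array weights, 2429 with a replicate block, 2258 without the thymus-rich arrays, 1898 with fat and heart covariates, 2268 without the 2 PBS arrays low in muscle (chosen after seeing the data, as were the skeletal covariate and the PBS-only block) and 2293 to 3984 without single arrays. With bleomycin and the inhibitor (2786 genes, 2 members) genes were 663 with the replicate block, 1162 with RNA integrity, 271 with the compared groups alone, 345 with fat and heart, 791 without those PBS arrays, 316 with skeletal muscle and 1186 to 3534 without single arrays; members were 0 in each of these 6 settings, 1 with probe means and 0 to 2 without single arrays. For the inhibitor in bleomycin lungs (5188, 6) genes were 2981 with RNA integrity, 2356 without thymus-rich arrays (3 members), 147 with fat and heart (0 members), and 3785 to 5640 (3 to 6 members) without single arrays. In PBS lungs (10, 0) genes were 394 with weights, 3 with the block, 2 with the PBS-only block, 0 with the compared groups alone, 3 without thymus-rich arrays, 17 with fat and heart, 31 without the PBS arrays, 55 with skeletal muscle and 2 to 121 without single arrays, 121 without replicate 3 of PBS + LNA-miR-199a-5p; members stayed at 0. For the interaction (1462, 2) genes were 3862 with weights (6 members), 947 with the block (0), 733 with RNA integrity (0), 525 without thymus-rich arrays (0), 176 with fat and heart (0), 513 without the PBS arrays (0) and 632 to 2215 (0 to 4) without single arrays; members were 1 with probe means and 1 with skeletal muscle. Reversals concerned differences that had not passed the test. Those of Cavin4 started from 0.26 for bleomycin with LNA-control, 0.63 with the inhibitor and 0.38 for the interaction. For bleomycin with LNA-control Pacsin2 was -0.012 with RNA integrity, -0.0069 without thymus-rich arrays, -0.039 with fat and heart, -0.018 with skeletal muscle and -0.031 to 0.038 without single arrays, and Cavin4 -0.11 with fat and heart and -0.063 with skeletal muscle. For bleomycin with the inhibitor Cavin4 was -0.16 with skeletal muscle. For the inhibitor in PBS lungs without the 2 PBS arrays Cavin3 was -0.057 and Pacsin2 0.024; without single arrays Cav2 ran from -0.11 to 0.041, Cavin2 from -0.039 to 0.12 and Cavin3 from -0.023 to 0.11. In bleomycin lungs Cav3 ran from -0.10 to 0.00059 without single arrays. For the interaction Pacsin2 was 0.0033 with RNA integrity, and Cavin4 -0.10 with skeletal muscle and -0.18 to 0.81 without single arrays. Cavin4 lies below the level filter and has no value there; background correction and slide could not be varied.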
